A study of Mus musculus with 8 samples.

Results

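The genes described here encode the vesicle coats, tethers and receptors that move cargo between the endoplasmic reticulum (ER) and the Golgi in mouse liver. They were chosen by symbol, with earlier results of these data known. The symbols were the coatomer (Cop) genes and Arcn1, the COPII genes (Sar1, Sec13, Sec16, Sec23, Sec24 and Sec31), and the Sec22, Tmed, Trappc and Kdelr genes. The symbol pattern found 55 of the 21049 genes in the deposited table, and 50 of them had a mean of at least 1 FPKM (fragments scaled to gene length and library total) over the 8 samples and were tested. They fell into 9 COPI genes, 13 COPII genes (12 tested), 12 TMED genes (9 tested), 15 TRAPP genes, 3 KDEL receptors (2 tested) and 3 Sec22 genes.

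COPII is the coat that buds vesicles from ER exit sites: the GTPase Sar1 recruits Sec23 and Sec24, Sec24 binds the cargo, and Sec13 with Sec31 forms an outer cage. COPI, the coatomer, coats vesicles that return from the Golgi, and KDEL receptors use them to bring escaped ER proteins back. TMED (p24) proteins are cargo receptors that cycle in both coats, TRAPP complexes tether vesicles and activate Rab GTPases, and Sec22b is a SNARE that drives fusion. In hepatocytes this route carries albumin, clotting factors and lipoproteins out of the cell.

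RNA was sequenced from 4 control samples given saline and 4 alcohol samples, all of WT genotype, with C57BL/6 named in the design text, which calls the treated group alcohol-fed. The labels give liver as tissue, hepatocyte as cell type and also AML12, a mouse hepatocyte line; they give no age, dose or duration, and all 8 samples share a batch label. Endothelial, Kupffer and red blood cell markers were present in both groups. The sources used here do not tie each sample to its own animal, so p-values measure the spread between these libraries, and alcohol replicates 2 and 4 resembled each other most (chi-square per gene 10.1, against 56.6 for the next closest pair and 234 for the least alike). Recovered library totals were 33872595 to 34789814 reads in controls and 37132631 to 38407511 reads with alcohol.

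With alcohol the SNARE Sec22b, the TRAPP subunit Trappc4 and the COPII subunits Sec24b and Sec23a rose, while the COPII cage protein Sec13, the TRAPP subunit Trappc1 and the COPI subunits Cope and Copb2 fell. Of the 50 tested genes, 13 were higher with alcohol and 9 were lower, and 28 did not pass the test. Among all 9228 tested genes, 57.2% passed in either direction, 44.2% were higher and 13.0% were lower, so the vesicle genes had a smaller share of higher genes (26.0%) and a larger share of lower ones (18%). Their median log2 change was -0.01, against 0.24 over all tested genes. Changes are alcohol minus control in log2(FPKM + 1), a scale that shrinks the changes of low genes, and were tested with limma at a Benjamini-Hochberg adjusted p of 0.05 over all tested genes. Without control replicate 4, 8 of the 50 genes were higher and 9 were lower (16% and 18%, beside 39.0% and 12.0% of all tested genes).

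**Figure D1:**
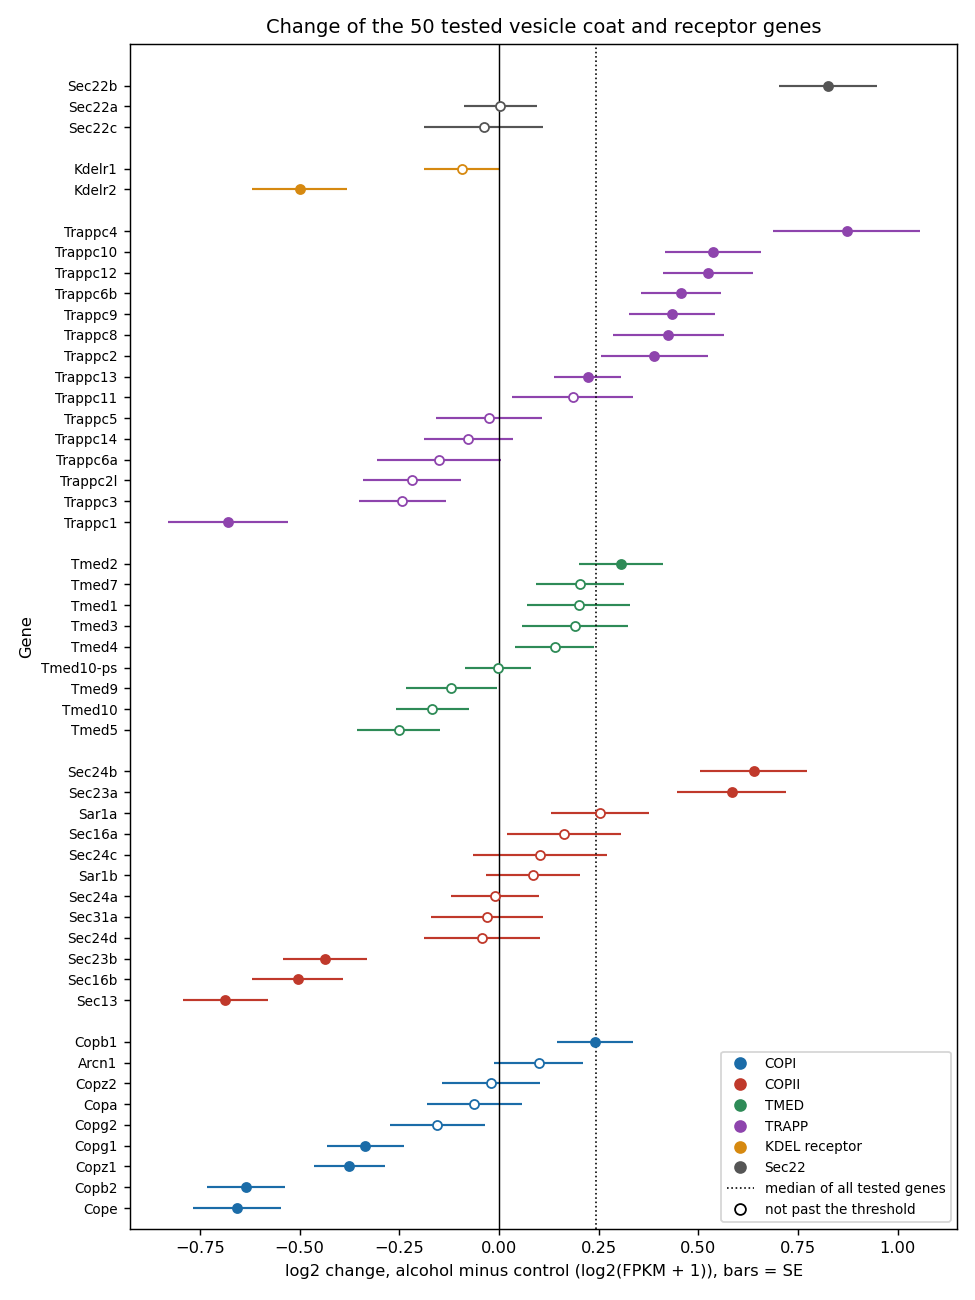
Log2 change of each of the 50 tested genes, alcohol minus control, by class, with bars for the SE; filled points passed limma's threshold and the dotted line is the median of all tested genes (0.24). COPI genes lie mostly left of 0, and 8 of 15 TRAPP genes are filled points to the right of it.

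The classes were compared by description only. COPI had 1 gene higher and 4 lower of 9 (median log2 change -0.16), COPII 2 higher and 3 lower of 12 (median 0.04), TMED 1 higher of 9 (median 0.14) and TRAPP 8 higher and 1 lower of 15 (median 0.22). The TRAPP share of higher genes, 53.3%, stood beside 44.2% for all tested genes, and the COPI share of lower genes, 44.4%, stood beside 13.0%. Summed FPKM of the COPI genes was 356 ± 7.01 in controls and 289 ± 11.4 with alcohol (SD, n = 4 per group), and the groups did not overlap on this scale. On the TPM scale, where each column is set to the same sum, they did: control replicate 4 was at 607 TPM and alcohol replicate 1 at 629 TPM (640 ± 33.3 in controls and 575 ± 45.1 with alcohol). The sums of COPII (339 ± 11.1 and 342 ± 4.01 FPKM), TMED (250 ± 13.6 and 262 ± 9.26 FPKM) and TRAPP (169 ± 12.5 and 167 ± 12.6 FPKM) overlapped between groups. With median-of-ratios scaling all 4 sums were lower in every alcohol sample than in any control. So was the sum of all genes, and the factor that divides each sample was larger in every alcohol sample than in any control. Before that scaling the sum of all genes was 517209 to 576544 FPKM in controls and 483138 to 523679 FPKM with alcohol. On the TPM scale, where that sum is equal, only COPI of the 4 had a lower mean with alcohol. There the TMED sum was higher in every alcohol sample (450 ± 42.6 and 521 ± 5.36 TPM). COPII (609 ± 42.6 and 680 ± 24.0 TPM) and TRAPP (304 ± 18.0 and 331 ± 12.4 TPM) overlapped between groups. In a bulk sample, fewer cells of a type and less RNA per cell cannot be told apart.

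The counts depended on how the libraries were scaled. With median-of-ratios scaling the median of all genes moved from 0.24 to -0.00; 6 vesicle genes were then higher and 21 lower, beside 25.9% and 26.5% of all tested genes. Quantile normalization gave 6 higher and 17 lower, beside 24.6% and 24.7%. On the TPM scale 18 were higher and 6 lower, beside 52.9% and 8.78%. The COPI median lay below the median of all genes under each of these scalings (-0.40 against -0.00, -0.34 against -0.00 and -0.04 against 0.40). TRAPP lay close to it under the first and the last (-0.04 and 0.37) and at -0.09 after quantile normalization.

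**Figure D2:**
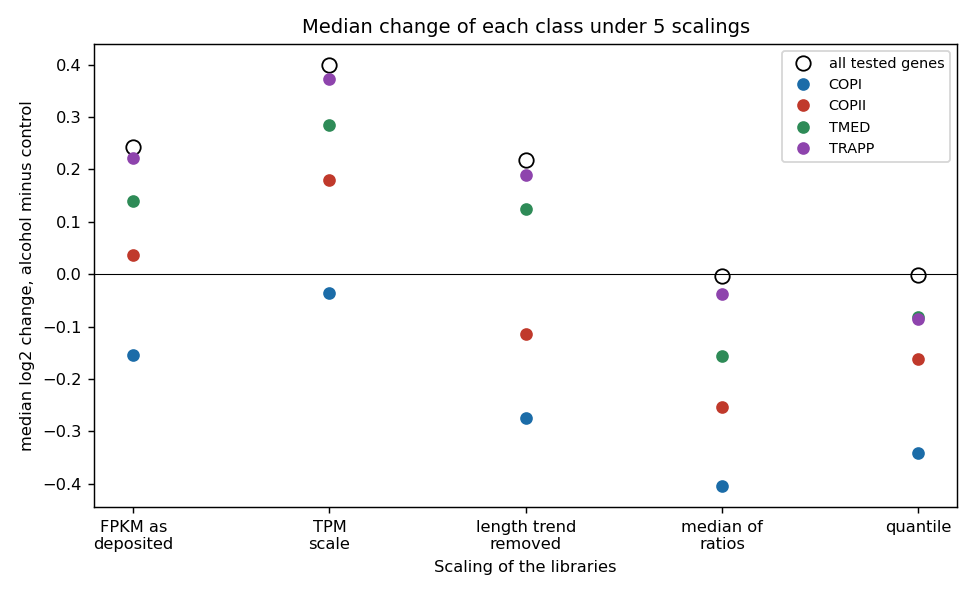
Median log2 change (alcohol minus control) of all tested genes and of the COPI, COPII, TMED and TRAPP genes under 5 scalings of the libraries. The COPI point is the lowest in each scaling, at -0.16 with FPKM as deposited and -0.40 with median-of-ratios scaling.

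Of the 22 genes that passed, 9 passed in the same direction under every one of the up to 18 alternative settings that tested them. Sec22b, Sec24b and Trappc4 were higher, and Copb2, Cope, Kdelr2, Sec13, Sec16b and Trappc1 were lower. These 9 are 40.9% of the 22, and 52.9% of all called genes (2797 of 5283) likewise kept their call under the 3 other scalings. In GENCODE M21 on GRCm38 the higher genes lie at chr3:97901190-97923276 (Sec22b, plus strand), chr3:129982759-130061553 (Sec24b, minus) and chr9:44403698-44407600 (Trappc4, minus). The lower ones lie at chr9:98563721-98588382 (Copb2, plus), chr8:70302518-70312993 (Cope, plus), chr5:143403838-143421901 (Kdelr2, plus), chr6:113728062-113740743 (Sec13, minus), chr1:157506728-157568425 (Sec16b, plus) and chr11:69323980-69325793 (Trappc1, plus). All 9 are annotated as protein-coding.

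**Figure D3:**
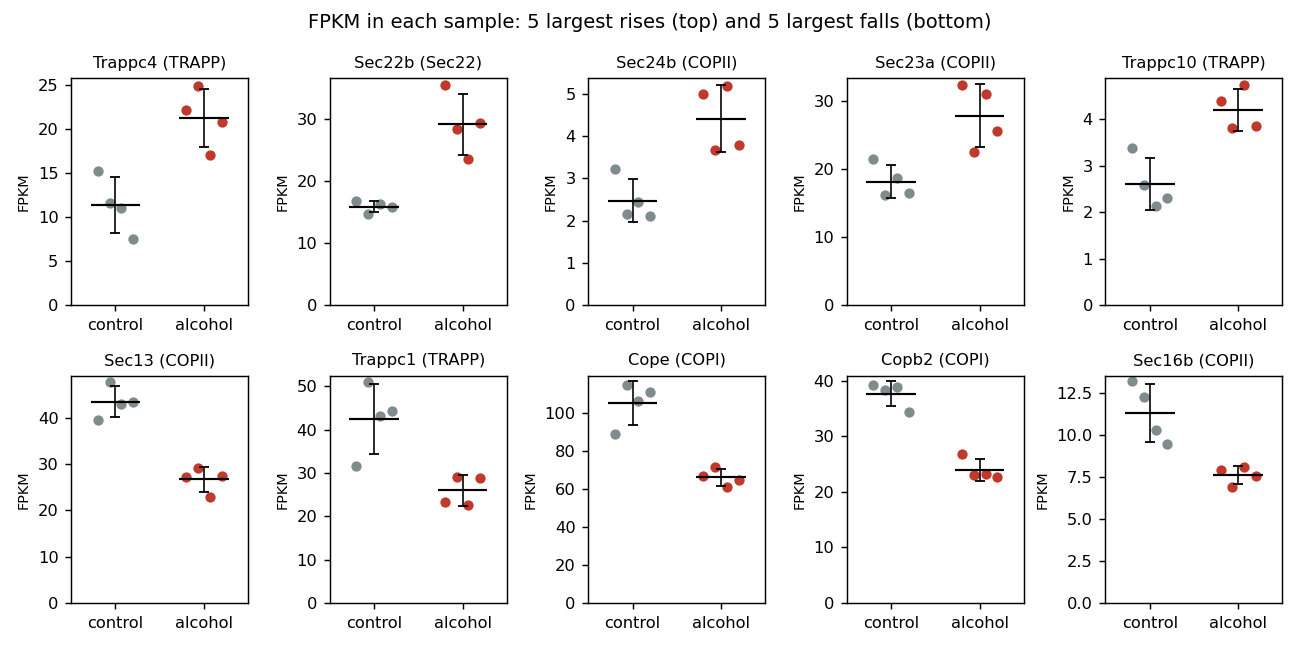
FPKM in each sample for the 5 largest rises (top) and the 5 largest falls (bottom) among genes that passed, with a line at the mean and bars for the SD of 4 samples. In all 10 panels the control and alcohol points do not overlap. The genes were picked on these same values, so this is no separate result.

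In the COPI coat, Cope, the ε subunit of the outer cage and the COPI gene with the highest level, stood at 89.0, 115, 106 and 111 FPKM in control replicates 1 to 4 and at 67.1, 71.8, 61.0 and 65.0 FPKM in alcohol replicates 1 to 4. Every alcohol sample was below every control. Cope fell by 0.66 ± 0.11 (SE) on the log2 scale, with a limma adjusted p of 0.000633, to 0.629 of its control mean. Copb2, the β′ subunit that recognises dilysine retrieval signals, measured 39.2, 38.4, 38.8 and 34.3 FPKM in controls and 26.8, 22.9, 23.3 and 22.6 FPKM with alcohol. The groups stood apart even though control replicate 4 was low and alcohol replicate 1 high within their groups. Copb2 fell by 0.63 ± 0.10, with a limma adjusted p of 0.000344. Copa, the α subunit and the other cage protein, did not pass, with a log2 change of -0.06 ± 0.12 (29.3 ± 3.42 FPKM in controls and 28.1 ± 3.59 with alcohol).

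Among the inner COPI subunits, 1 of 6 was higher and 2 were lower, beside 44.2% and 13.0% of all tested genes. Copz1, a ζ subunit, fell from 75.7 ± 3.43 to 58.1 ± 1.90 FPKM, and its samples ran 79.2, 76.4, 76.1 and 71.0 in controls and 58.3, 55.8, 60.4 and 57.9 with alcohol. Its paralogue Copz2 stood at 13.4, 18.7, 19.3 and 17.8 FPKM in controls and 15.2, 17.3, 16.8 and 18.4 FPKM with alcohol, groups that overlap. The γ subunit Copg1 fell from 15.1 ± 1.07 to 11.8 ± 0.951 FPKM, and the calls of Copz1 and Copg1 (limma adjusted p of 0.00479 and 0.0125) were lost on the TPM scale. Copb1, the β subunit, was the only COPI gene called higher, from 30.1 ± 0.902 to 35.8 ± 3.18 FPKM with a limma adjusted p of 0.0496; the call was lost in 14 of 18 alternatives and its log2 change was -0.05 with median-of-ratios scaling. Arcn1, the δ subunit (log2 change 0.10), and Copg2 (-0.16) did not pass.

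In the COPII coat the falls and rises fell on different subunits. Sec13, the outer-cage protein that is also part of the nuclear pore, stood at 39.6, 47.7, 43.0 and 43.3 FPKM in controls and 27.3, 29.2, 22.8 and 27.4 FPKM with alcohol. No alcohol sample reached the lowest control. Sec13 fell by 0.69 ± 0.11, with a limma adjusted p of 0.000386. Its cage partner Sec31a did not pass (28.6 ± 3.59 and 28.1 ± 5.03 FPKM, log2 change -0.03 ± 0.14). Sec16b, which organises ER exit sites, had 13.2, 12.3, 10.3 and 9.50 FPKM in controls and 7.94, 6.91, 8.09 and 7.58 FPKM with alcohol. Its groups did not overlap, and it fell by 0.51 ± 0.11 (limma adjusted p of 0.00351). Sec16a, its longer paralogue, measured 9.20, 6.83, 6.97 and 7.63 FPKM in controls and 10.4, 7.77, 10.1 and 6.80 FPKM with alcohol, and it did not pass (log2 change 0.16 ± 0.14).

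Sec23 activates the Sar1 GTPase in the inner coat, and its paralogues moved in opposite directions. Sec23a stood at 21.5, 16.2, 18.7 and 16.5 FPKM in controls and 32.4, 22.5, 31.1 and 25.6 FPKM with alcohol. Alcohol replicates 1 and 3 were the highest, and the lowest alcohol sample was above the highest control. Sec23a rose by 0.58 ± 0.14 (limma adjusted p of 0.00436), and median-of-ratios scaling ended this call. Its exons overlap Gm17529 on the other strand, a gene not analysed here. Sec23b, the paralogue mutated in a human congenital dyserythropoietic anaemia, had 12.4, 11.2, 10.5 and 12.1 FPKM in controls and 9.84, 7.65, 7.88 and 7.84 FPKM with alcohol. All alcohol samples were below all controls. Sec23b fell by 0.44 ± 0.10 (limma adjusted p of 0.00492), a call lost on the TPM scale.

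Sec24 proteins are the cargo adaptors of the coat. Sec24b stood at 3.21, 2.15, 2.44 and 2.11 FPKM in controls and 4.99, 3.68, 5.20 and 3.80 FPKM with alcohol. These values rest on 361 to 1011 reads in a library. The groups did not overlap, and alcohol replicates 1 and 3 were again the highest. Sec24b rose by 0.64 ± 0.13, 1.78-fold, with a limma adjusted p of 0.00234. Sec24a, its closest relative, had 11.8, 12.6, 11.2 and 12.8 FPKM in controls and 14.3, 10.4, 12.5 and 11.0 FPKM with alcohol, and the groups overlapped (log2 change -0.01 ± 0.11). Sec24c (0.10 ± 0.17) and Sec24d (-0.04 ± 0.15) did not pass. Sar1b, the Sar1 GTPase known for lipoprotein export and the gene with the highest level in the coat, stood at 151, 173, 177 and 151 FPKM in controls and 151, 191, 163 and 187 FPKM with alcohol. Its groups overlapped and it did not pass (0.08 ± 0.12), nor did Sar1a (0.25 ± 0.12, limma adjusted p of 0.0994).

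The start of each gene was read from RefSeq promoters (build GRCm38.p6, 250 bases before to 50 after the start), since ER stress factors that regulate secretory genes bind short sites there. Promoters were matched for 44 of the 55 genes (48 promoters), and both strands were searched for TGACGTGG, a core of XBP1 and ATF6 sites, for CCACGT, which overlaps every such core, and for the ER stress element (CCAAT, 9 bases of any kind, CCACG). TGACGTGG was in 6 of 48 (12.5%), beside 0.676% of the 32851 promoters in the table. CCACGT was in 21 of 48 (43.8%), beside 8.31%, and the ER stress element was in 0 of 48, beside 0.119%. The 48 promoters were richer in G and C bases (median 58.7%, beside 52.7% over all promoters), and each string searched holds CG. The part of base content in these shares was not tested. A match describes letters only and shows no binding. The 6 windows with TGACGTGG are shown because they put genes called higher (Copb1, Sec23a), called lower (Copb2, Sec16b), not passing (Sec24d) and below the level minimum (Kdelr3) side by side; each reads 5′ to 3′ with the core in capitals.
Sec23a, chr12:59011994-59012021, minus strand: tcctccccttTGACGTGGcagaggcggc
Copb1, chr7:114254691-114254718, plus strand: agtccttggcTGACGTGGaagggggcgg
Copb2, chr9:98563714-98563741, minus strand: gccaacccacTGACGTGGaacttccggg
Sec16b, chr1:157506742-157506769, plus strand: tctgtgtggcTGACGTGGcacggcagtt
Sec24d, chr3:123267460-123267487, plus strand: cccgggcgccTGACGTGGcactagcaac
Kdelr3, chr15:79516368-79516395, minus strand: ggccgcgcggTGACGTGGcggggcggcc

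Whole promoters are given for the COPII genes that rose, Sec23a and Sec24b, on the gene's own strand (minus for both), with matches in capitals. The Sec23a core starts 6 bases after the start site. Sec24b holds CCACGT on the other strand, so it reads ACGTGG here, and the match starts 169 bases before the RefSeq start site. GENCODE M21 places Sec24b at chr3:129982759-130061553 on the minus strand, so its start there is at 130061553. The printed Sec24b window lies wholly inside that gene, after the GENCODE start. The match is therefore upstream of the RefSeq start only, and which start these libraries used was not tested.
Sec23a, chr12:59011968-59012267: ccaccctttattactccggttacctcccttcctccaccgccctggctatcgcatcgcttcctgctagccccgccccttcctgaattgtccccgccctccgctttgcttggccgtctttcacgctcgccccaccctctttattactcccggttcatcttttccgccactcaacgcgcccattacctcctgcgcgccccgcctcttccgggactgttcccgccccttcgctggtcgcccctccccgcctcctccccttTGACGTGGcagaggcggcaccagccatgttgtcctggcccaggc
Sec24b, chr3:130060858-130061157: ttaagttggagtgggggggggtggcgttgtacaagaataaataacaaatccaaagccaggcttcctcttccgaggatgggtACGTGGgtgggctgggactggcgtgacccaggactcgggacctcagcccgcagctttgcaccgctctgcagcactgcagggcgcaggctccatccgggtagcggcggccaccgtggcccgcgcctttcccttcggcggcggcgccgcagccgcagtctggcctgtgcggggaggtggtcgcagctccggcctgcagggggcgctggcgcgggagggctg

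The ratio of paralogues within a sample is not changed by a single scaling factor for the library, and 6 of 10 pairs differed between groups. The Sec23a to Sec23b FPKM ratio was 1.73, 1.44, 1.78 and 1.37 in controls and 3.29, 2.94, 3.95 and 3.27 with alcohol. It rose from 1.58 ± 0.206 to 3.36 ± 0.422 (SD, n = 4 per group). The Sec24a to Sec24b ratio fell from 5.05 ± 1.13 to 2.75 ± 0.235, while the Sec16a to Sec16b ratio rose from 0.683 ± 0.101 to 1.15 ± 0.182. The Copz1 to Copz2 ratio fell from 4.48 ± 0.950 to 3.45 ± 0.329. Control replicate 1 was at 5.91 and the other controls at 3.95 to 4.10, and without it the log2 difference went from -0.36 to -0.22. The Kdelr1 to Kdelr2 ratio rose from 1.03 ± 0.0766 to 1.37 ± 0.10, and the Trappc6a to Trappc6b ratio fell from 0.987 ± 0.174 to 0.627 ± 0.0995. In each of these 6 pairs the groups did not overlap. Each had an exact 2-sided permutation p of 0.0286, the smallest that 70 assignments can give. After Benjamini-Hochberg adjustment over the 10 pairs the permutation p was 0.0476. All 6 share this value because they sit at the smallest p, so they pass together, and it depends on how many pairs reach it. How often other gene pairs differ was not looked at, and 57.2% of all tested genes passed in either direction. The ratios of Sec24c to Sec24d, Sec31a to Sec31b, Sar1a to Sar1b and Copg1 to Copg2 overlapped between groups and did not pass (adjusted permutation p of 0.413 for the first 3 and 0.514 for Copg1 to Copg2).

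**Figure D4:**
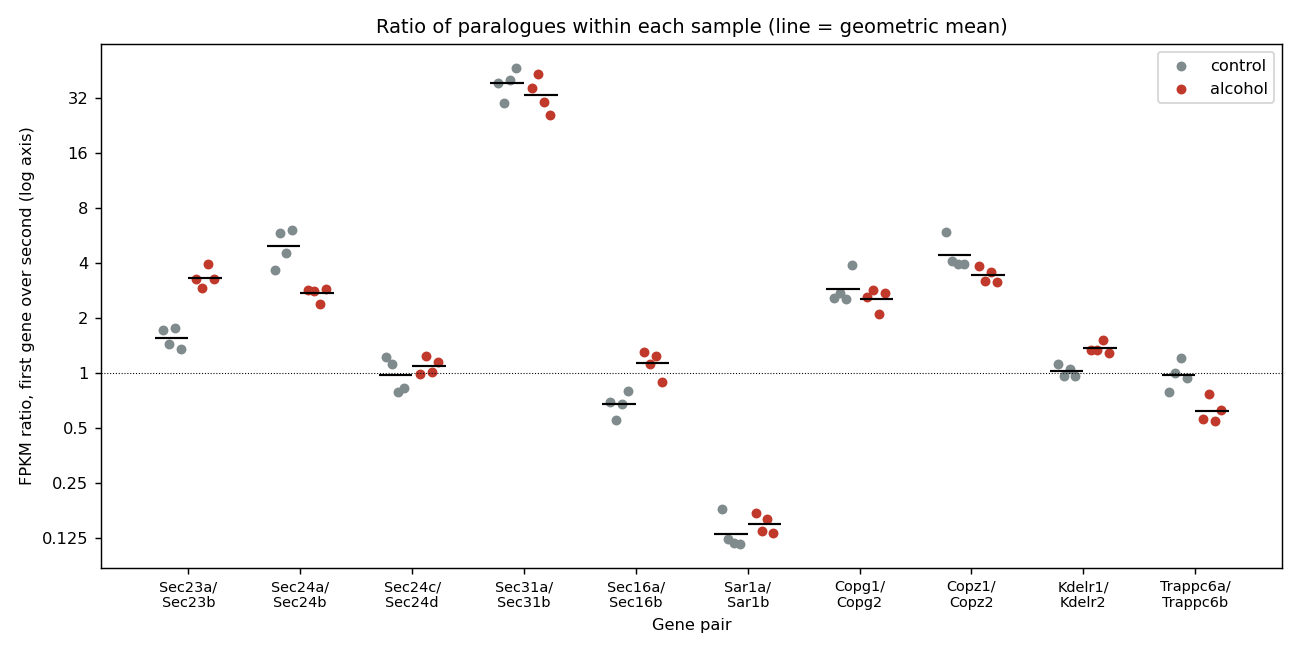
FPKM ratio of the first to the second paralogue in each sample for 10 pairs, on a log axis, with a line at the geometric mean of each group. The Sec23a to Sec23b points lie between 1.37 and 1.78 in controls and between 2.94 and 3.95 with alcohol.

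Length differs within pairs, and the change with alcohol went with length in these libraries (Spearman rho 0.32 over all 9228 tested genes, 0.26 over the 50 vesicle genes and 0.56 over the 15 TRAPP genes; genes within a library are not independent). With a smooth length trend taken out of each sample, the Sec23a log2 change minus that of Sec23b was 0.96, against 1.02 before. The difference for Trappc6a (827 bases) minus Trappc6b (1969 bases) shrank from -0.61 to -0.36. The difference for Copz1 minus Copz2 went from -0.36 to -0.57, and that for Sec16a minus Sec16b from 0.67 to 0.61. For Sar1a minus Sar1b, a pair that did not pass, it went from 0.17 to -0.16. Quantile normalization, which shifts genes by their rank, also moved pairs: Copz1 minus Copz2 went from -0.36 to -0.12 and Sar1a minus Sar1b to -0.07, while Sec23a minus Sec23b was 1.13.

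**Figure D5:**
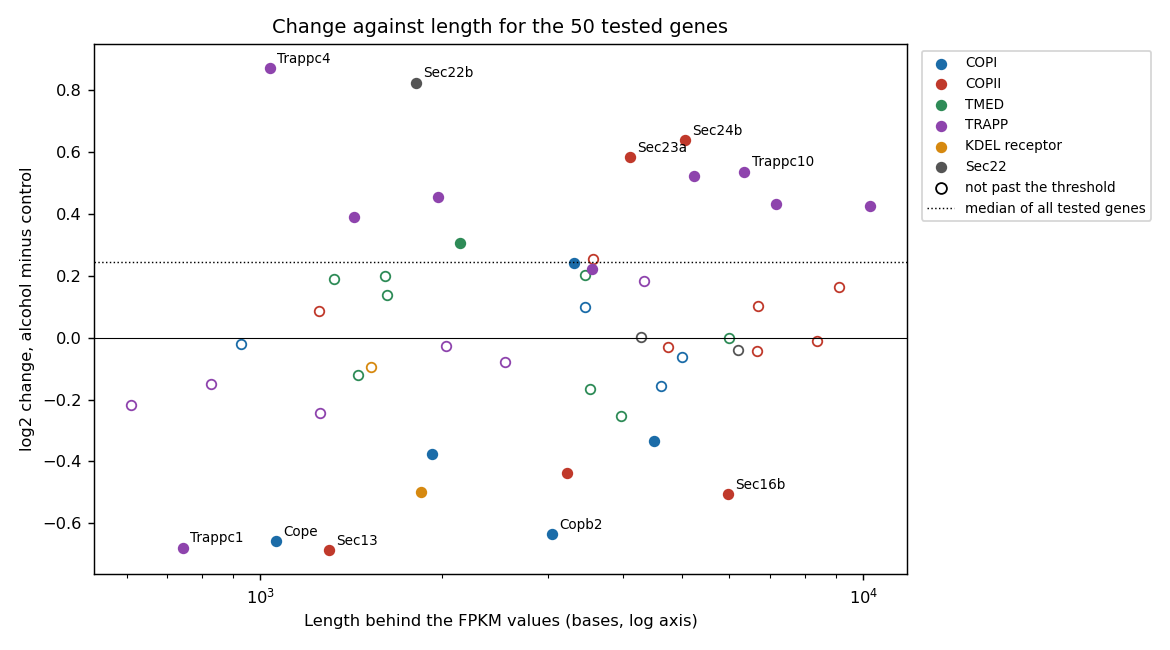
Log2 change (alcohol minus control) against the gene length behind the FPKM values (log axis) for the 50 tested genes, coloured by class; filled points passed limma's threshold. Trappc4, Cope, Sec13 and Trappc1 lie near 1000 bases with changes of 0.87, -0.66, -0.69 and -0.68.

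Length also went with differences between replicates. In 24 of the 50 genes (48.0%, median length 5034.5 bases) alcohol replicates 1 and 3 were both above replicates 2 and 4, as in Sec23a, Sec24b and Trappc10. In 15 genes (30.0%, median length 1324 bases) they were both below. Over all tested genes these shares were 31.8% and 29.2%. Control replicate 1 was the highest control for 26 of 50 (52.0%), beside 47.1% of all tested genes.

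Among the TMED cargo receptors, 1 of 9 tested genes passed (11.1%, beside 57.2% of all tested genes in either direction). Tmed2, a p24 protein that cycles between the ER and the Golgi and the TMED gene with the highest level, stood at 58.2, 47.6, 46.3 and 47.0 FPKM in controls and 58.7, 59.1, 64.8 and 63.5 FPKM with alcohol. Control replicate 1 stood well above the other controls, just under the lowest alcohol sample. Tmed2 rose by 0.31 ± 0.10 (limma adjusted p of 0.0280), and it was not called with median-of-ratios scaling, nor without control replicate 2, 3 or 4 or alcohol replicate 3 or 4. The other tested TMED genes had log2 changes from -0.25 (Tmed5, limma adjusted p of 0.0600) to 0.20 (Tmed7). Tmed10-ps, counted among the 9, is annotated as a processed pseudogene of Tmed10, so the split of reads between them is uncertain (log2 change -0.00 and -0.17). The length behind its FPKM values was 5982 bases, but its exons in GENCODE M21 cover 660 bases, so the gene model counted was not the annotated one. The length also exceeded the exon cover in other genes, such as Sec16b (5960 and 5410 bases) and Tmed8 (15757 and 7409 bases).

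TRAPP genes called higher included 3 of 8 core subunits, 2 of 3 subunits of TRAPPII and 3 of 4 of TRAPPIII, the larger complexes built on the core, beside 44.2% of all tested genes. With median-of-ratios scaling 4 of the 15 were higher and 5 lower (26.7% and 33.3%, beside 25.9% and 26.5% of all tested genes). With quantile normalization 2 were higher and 4 lower (13.3% and 26.7%, beside 24.6% and 24.7%). Trappc4, a core subunit, stood at 15.2, 11.6, 11.0 and 7.49 FPKM in controls and 22.2, 24.8, 17.0 and 20.7 FPKM with alcohol. The lowest alcohol sample was above the highest control. Trappc4 rose by 0.87 ± 0.18, 1.87-fold, the largest rise among the 50 genes (limma adjusted p of 0.00234). Its exons overlap those of Rps25, a ribosomal protein gene on the other strand, which stood at 355 ± 53.8 and 419 ± 86.7 FPKM and did not pass (log2 change 0.23 ± 0.17). Whether the libraries kept strand is not given in the sources used here. Without strand, reads from the stretch that Trappc4 and Rps25 share cannot be told apart, and the extent of that stretch was not measured.

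Trappc10, a subunit specific to TRAPPII, had 3.39, 2.59, 2.13 and 2.30 FPKM in controls and 4.39, 3.81, 4.74 and 3.86 FPKM with alcohol, with no overlap. It rose by 0.54 ± 0.12 (limma adjusted p of 0.00342). Its partner Trappc9 rose from 0.983 ± 0.285 to 1.66 ± 0.119 FPKM, and the TRAPPIII subunit Trappc12 from 3.64 ± 0.503 to 5.67 ± 0.643 FPKM. Trappc10, Trappc9 and Trappc12 were not called after quantile normalization. The calls of 2 further TRAPPIII subunits held less well. Trappc8 (2.86 ± 0.546 and 4.20 ± 0.824 FPKM, overlapping groups, limma adjusted p of 0.0224) was called in 9 of 17 alternatives. Trappc13 (5.55 ± 0.277 and 6.63 ± 0.170 FPKM, limma adjusted p of 0.0414) was called in 6 of 18 and not without any 1 of control replicates 2 to 4 or alcohol replicates 1 to 4, and its log2 change of 0.22 became -0.04 with median-of-ratios scaling and -0.09 after quantile normalization. Trappc11 of TRAPPIII (log2 change 0.18) and Trappc14 of TRAPPII (-0.08) did not pass. With a minimum mean of 5 FPKM, 3 of the 9 TRAPP genes then tested were higher (33.3%, beside 38.1% of all genes then tested). Without control replicate 4, or without alcohol replicate 1, 5 of 15 TRAPP genes were higher (33.3%, beside 39.0% and 41.4% of all tested genes).

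The TRAPP core went both ways. Trappc1 stood at 31.6, 50.9, 43.1 and 44.3 FPKM in controls and 23.4, 29.1, 22.5 and 28.8 FPKM with alcohol. Control replicate 1 was the lowest control, yet above every alcohol sample. Trappc1, which had the highest mean of the TRAPP genes, fell by 0.68 ± 0.15 (limma adjusted p of 0.00312). Trappc6b rose, from 12.6, 14.0, 11.3 and 11.5 to 17.0, 18.3, 15.7 and 18.0 FPKM (log2 change 0.46 ± 0.10, limma adjusted p of 0.00290), and median-of-ratios scaling ended that call too. Its paralogue Trappc6a had 9.98, 14.1, 13.6 and 10.9 FPKM in controls and 9.63, 14.0, 8.63 and 11.3 FPKM with alcohol, and did not pass (-0.15 ± 0.16). Trappc2 rose from 2.52 ± 0.674 to 3.55 ± 0.317 FPKM with overlapping groups (limma adjusted p of 0.0291). Its exons overlap Ofd1 on the other strand (0.403 ± 0.0728 and 0.630 ± 0.152 FPKM), and it was not called under 8 of 17 alternatives. Trappc3 (-0.24), Trappc2l (-0.22) and Trappc5 (-0.03), also of the core, did not pass.

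Of the retrieval receptors, Kdelr2 fell and Kdelr1 did not pass. Kdelr2 stood at 56.6, 76.1, 66.1 and 72.7 FPKM in controls and 45.8, 50.5, 42.4 and 51.5 FPKM with alcohol, with no overlap. It fell by 0.50 ± 0.12 (limma adjusted p of 0.00464). Kdelr1 had 63.8, 73.5, 69.9 and 70.8 FPKM in controls and 61.5, 68.0, 64.3 and 66.2 FPKM with alcohol (log2 change -0.09 ± 0.09). The groups overlapped for Kdelr1.

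Sec22b had the smallest p of all 50 genes. It stood at 16.9, 14.7, 16.3 and 15.8 FPKM in controls and 35.6, 28.4, 23.6 and 29.4 FPKM with alcohol, so that the lowest alcohol sample lay well above the highest control. Sec22b rose by 0.82 ± 0.12, 1.84-fold, with a limma adjusted p of 0.000294. Sec22a (0.00 ± 0.09) and Sec22c (-0.04 ± 0.15), its relatives, did not pass.

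The 5 untested genes lay below the level minimum. Kdelr3 had 2, 5, 4 and 6 reads in controls and 10, 14, 9 and 22 with alcohol, and in a fit of all 21049 genes its log2 change was 0.21 (limma adjusted p of 0.0366). Tmed8 had 32 to 79 reads in controls and 108 to 154 with alcohol (log2 change 0.13, limma adjusted p of 0.0102 in that fit). Sec31b did not pass there (0.09, limma adjusted p of 0.528), and Tmed6 and Tmed11 had at most 1 read in any library.

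Other genes of the route, from a list of 66 of which 63 were tested, gave 17 higher and 11 lower (27.0% and 17.5%, median 0.10), beside 44.2% and 13.0% of all tested genes. Without control replicate 2 or 3, 7 or 6 of them were lower, beside 10.9% or 10.8% of all tested genes. At the ER exit site 3 of 16 were higher and 3 lower (18.8% each). Mcfd2, which with Lman1 forms the receptor for clotting factors, rose from 78.6 ± 9.23 to 179 ± 12.0 FPKM (log2 change 1.18 ± 0.12, limma adjusted p of 2.24e-05), while Lman1 itself did not pass (72.0 ± 3.92 and 80.2 ± 7.00 FPKM). Ergic1, of the ER-Golgi intermediate compartment, rose from 9.33 ± 1.57 to 14.2 ± 1.46 FPKM, and Cideb, a lipid droplet protein that takes part in lipoprotein export, fell from 261 ± 34.2 to 156 ± 18.7 FPKM.

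Among tethers, Rabs and SNAREs 6 of 22 were higher and 3 lower (27.3% and 13.6%). The SNARE Stx18 rose from 1.55 ± 0.321 to 2.61 ± 0.505 FPKM and Zw10, a tether that works with it, from 2.36 ± 0.454 to 3.63 ± 0.161 FPKM. Scfd1, the Sly1 protein that acts on ER-Golgi SNAREs, fell from 8.04 ± 0.838 to 5.38 ± 1.02 FPKM. In the ARF cycle that loads COPI, 2 of 8 were higher and 3 lower (25.0% and 37.5%). Arfgap3 fell from 2.72 ± 0.441 to 1.36 ± 0.110 FPKM, Arf5 fell from 59.8 ± 7.34 to 37.1 ± 3.56 FPKM and Arfgap2 rose from 23.2 ± 4.08 to 32.3 ± 1.11 FPKM.

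Of 9 tested regulators of secretory genes 4 were higher (44.4%), a share close to the 44.2% of all tested genes. The stress factor Atf6 rose from 5.50 ± 1.55 to 19.2 ± 3.37 FPKM (log2 change 1.65 ± 0.17, limma adjusted p of 2.81e-05), the stress sensor Ern1 from 6.20 ± 1.15 to 16.0 ± 2.22 FPKM and the Atf6 protease Mbtps2 from 1.41 ± 0.172 to 2.69 ± 0.222 FPKM. Xbp1, whose RNA Ern1 splices, did not pass (128 ± 28.4 and 105 ± 57.8 FPKM), and alcohol replicate 1 was at 191 FPKM against 70.2 to 85.6 in the others. Of 8 tested cargo genes 2 were higher and 2 lower (25.0% each). Mttp, the lipid transfer protein that builds lipoproteins, rose from 58.0 ± 4.77 to 82.0 ± 9.46 FPKM, and the secreted proteins Apoa1 (13983 ± 1486 to 7633 ± 325 FPKM) and Ttr (5513 ± 1116 to 3468 ± 258 FPKM) fell. Among these named genes of the route, median-of-ratios scaling ended the calls of Ergic1, Arfgap2 and Mttp, quantile normalization those of Ergic1, Stx18 and Zw10, and a fit without a level minimum those of Apoa1 and Ttr.

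Some markers of liver cell types passed, beside 44.2% of all tested genes that were higher and 13.0% that were lower. All 7 endothelial markers rose, with a summed level of 13.7 to 21.2 FPKM in controls and 61.7 to 74.3 FPKM with alcohol. Of 7 stellate cell markers 4 rose and 1 fell (sum 42.9 to 74.4 and 107 to 155 FPKM). Of 7 tested Kupffer and macrophage markers 1 fell (42.5 to 134 and 52.0 to 89.0 FPKM), and of 6 hepatocyte markers 1 rose and 3 fell. None of the markers was listed at 0 in all 8 samples. The part of these cell types in the changes of the coat and tether genes was not tested.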

How the data were processed

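RNA from 8 samples labelled as mouse liver (4 control, 4 alcohol) was read as 1 deposited table of FPKM values that the authors made. The submitters' processing notes name GRCm38 and mm10; the aligner, the counter and the annotation were not stated there or in the labels. Per the labels' protocols, libraries came from a SMARTER mRNA kit. Groups and replicate numbers came from the sample titles. Library totals and gene lengths that turned the FPKM of all 21049 genes into whole reads (within 0.0001 of a read) gave the depth; these count reads as recovered, not as deposited.

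Genes whose mean over all samples reached 1 FPKM were fitted with limma 3.58.1 (R 4.3.3) on log2(FPKM + 1), with a mean-variance trend, after a run on simulated data. Exact permutation tests used numpy 2.4.6, and the correlations with gene length used scipy 1.17.1. The genes and lists were chosen with earlier results of these data known. Sample values were given for the 5 largest rises and 5 largest falls among genes that passed, in each class the gene with the highest mean and the one with the smallest p, and both genes of each pair that passed; up to 3 other genes of the route per group were named by smallest p, and Lman1 and Xbp1, which did not pass, were added after their values were seen. Coordinates of genes and overlaps came from GENCODE M21, where 54 of 55 symbols matched. Alternatives changed the pseudocount, filter, scaling, samples or test. The 6 core windows were chosen after the motif search.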

Additional observations from a re-analysis of the deposited data

Results flagged for a closer look

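In 7 of 130 groups of 4 samples (members and other named genes) 1 sample stood apart from the other 3, its gap past Dixon's critical share of the group's range; chance gives about 1 in 20. Arcn1 was at 47.1 FPKM in control replicate 1, against 37.1 to 38.3 in the other controls. Tmed2 was at 58.2 FPKM in that sample, against 46.3 to 47.6. Trappc9 was at 1.41 FPKM there, against 0.820 to 0.860, and Atf6 at 7.80 FPKM, against 4.52 to 4.99. Copb2 was at 34.3 FPKM in control replicate 4, against 38.4 to 39.2, and at 26.8 FPKM in alcohol replicate 1, against 22.6 to 23.3. Sec23b was at 9.84 FPKM in alcohol replicate 1, against 7.65 to 7.88.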

How the results depend on the processing

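Counts over all tested genes ran from 3537 to 4362 higher and 1000 to 1278 lower when 1 sample was left out. Over the vesicle genes they ran from 8 to 13 higher and 9 to 10 lower, for COPI from 0 to 1 and 4 to 4, for COPII from 2 to 3 and 3 to 3, for TMED from 0 to 2 and 0 to 1, for TRAPP from 5 to 8 and 1 to 2, and for the other genes of the route from 14 to 24 and 6 to 12. With median-of-ratios scaling 2386 of all genes were higher and 2446 lower, with 6 and 21 vesicle genes, 7 and 24 other genes of the route, 0 COPI and 1 COPII genes higher, 0 and 3 TMED genes and 4 and 5 TRAPP genes. Quantile normalization gave 2270 and 2275 of all genes, 6 and 17 vesicle genes, 10 other genes of the route higher, 0 COPI genes higher, 2 TMED genes lower and 2 and 4 TRAPP genes. On the TPM scale 2 COPI genes and 7 other genes of the route were lower and 5 TMED genes higher. A minimum of 5 FPKM left 1981 genes, 7 vesicle genes, 1 COPII and 3 TRAPP genes higher, with fewer genes tested, and no filter gave 2 TMED genes higher. A pseudocount of 0.1 and limma-voom on recovered reads each left 0 COPI genes higher. With alcohol replicates 2 and 4 averaged, 0 COPI and 0 TMED genes were higher. Removing the length trend, which like limma-voom was chosen after seeing the data, gave 4 TMED genes higher and 2 lower. Class sums on other scales and differences within pairs after quantile normalization or removal of the length trend were also added after seeing the data. The causes of these shifts were not tested, apart from the fewer genes tested.

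The values did not settle whether replicate numbers pair the samples. Same-numbered deviations correlated at 0.07 to 0.35 and others at -0.43 to 0.29. Of 4 alcohol samples 2 correlated best with their own number, as did 2 of 4 controls. With the replicate block 4307 genes were higher and 1380 lower, 11 and 10 of them vesicle genes, with 0 COPI genes higher and 1 TMED gene lower. The 6 paralogue ratios kept their direction with 1 sample left out and with the block; their calls were not tested again there, since the exact test cannot go below a p of 0.0571 for 3 against 4 samples or 0.125 for 4 pairs, and no model was fitted in its place. The planned edgeR test was not run, since the values are FPKM.

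Some genes changed sign, among them Copb1 and Trappc13, which were called higher as deposited. With median-of-ratios scaling this held for Arcn1 (-0.20), Copb1 (-0.053), Sar1a (-0.037), Sar1b (-0.22), Sec16a (-0.10), Sec22a (-0.23), Sec24c (-0.17), Tmed1 (-0.071), Tmed3 (-0.087), Tmed4 (-0.16), Tmed7 (-0.091), Trappc11 (-0.079) and Trappc13 (-0.038). On the TPM scale it held for Copa (0.081), Copz2 (0.12), Kdelr1 (0.051), Sec22c (0.069), Sec24a (0.13), Sec24d (0.092), Sec31a (0.11), Tmed10-ps (0.097), Tmed9 (0.024), Trappc14 (0.037) and Trappc5 (0.11). After removal of the length trend it held for Copz2 (0.29), Kdelr1 (0.085), Sec16a (-0.048), Sec22a (-0.11), Sec24c (-0.072), Tmed9 (0.074), Trappc2l (0.19), Trappc5 (0.057) and Trappc6a (0.19). After quantile normalization it held for Sec16a (-0.11), Sec22a (-0.33), Sec24c (-0.17), Tmed1 (-0.081), Tmed3 (-0.067), Trappc11 (-0.11) and Trappc13 (-0.085). With alcohol replicates 2 and 4 averaged it held for Sec22c (0.027), Sec24a (0.039), Sec24d (0.032), Sec31a (0.040) and Tmed10-ps (0.0073). With 1 sample left out, the log2 change ran from -0.12 to 0.014 for Copa, -0.13 to 0.033 for Copz2, -0.039 to 0.035 for Sec22a, -0.13 to 0.041 for Sec22c, -0.091 to 0.051 for Sec24a, -0.16 to 0.035 for Sec24d, -0.12 to 0.041 for Sec31a, -0.033 to 0.029 for Tmed10-ps and -0.12 to 0.034 for Trappc5.

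The tested vesicle genes had at least 90 reads in each library; few reads limit Kdelr3, Tmed6 and Tmed11.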
